A study of Mus musculus with 2 samples.

Results

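The mir-181 family of the mouse is made from 6 hairpin genes, Mir181a-1, Mir181a-2, Mir181b-1, Mir181b-2, Mir181c and Mir181d, and was followed here in the hindbrain of embryonic day 13.5. The members were taken by name: all 6 have a row among the 1973 gene rows of the deposited tables, and all 6 reached 10 counts in each library, the limit for calling a gene detected that 356 genes passed. The tissue was whole hindbrain dissected from healthy B6NCrl embryos, pooled over males and females, with no allele or treatment named in the labels. Its short RNA was sequenced in 2 libraries, which form 1 group. The labels number them as biological replicates 1 and 2, called replicate 1 and replicate 2 here. The libraries share a donor identifier and have separate biosample identifiers. Beyond this, nothing in the sources used here says how far apart the 2 samples were taken. How much of the spread between them is technical is therefore not known. Pooled dissected tissue gives an average over its cell types, in which fewer cells with a microRNA and less of it per cell cannot be told apart.

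A microRNA gene is transcribed as part of a longer RNA, from which the enzymes Drosha and Dicer cut a hairpin and then its arms, the 5p and the 3p strand. The strand that is loaded into an Argonaute protein pairs with target messages mainly through its seed, bases 2 to 8 from the 5′ end, and lowers their output. In the mir-181 family the 5p strand is the usual guide. The family is known for tuning the sensitivity of the T cell receptor in developing T cells and is also found in brain. Its hairpins come as 3 neighbouring pairs, each with an a or c type hairpin beside a b or d type hairpin.

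The 10 different mature strands of the family, from the RefSeq microRNA table on GRCm38.p6, fall into a 5p set with 1 common seed and a 3p set that is more varied. The 5p strands are shown first because they decide which reads can be told apart, with the seed in capitals and each strand written 5′ to 3′.
miR-181a-5p: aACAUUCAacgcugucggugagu
miR-181b-5p: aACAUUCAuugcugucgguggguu
miR-181c-5p: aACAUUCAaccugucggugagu
miR-181d-5p: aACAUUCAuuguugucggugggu
All 4 have the seed ACAUUCA, and no gene outside the family has it among the 1679 mature names of that table. Counted from 1 at the 5′ end, miR-181a-5p and miR-181b-5p differ by A9U, C10U and A21G and by an added last base in miR-181b-5p. Between miR-181b-5p and miR-181d-5p there is 1 substitution, C12U, beside the last base. miR-181c-5p is 1 base shorter than miR-181a-5p and lies at an edit distance of 1 from it.

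The 3p strands, again with the seed in capitals, are the only mature strands that tell Mir181a-1 from Mir181a-2 and Mir181b-1 from Mir181b-2.
miR-181a-1-3p: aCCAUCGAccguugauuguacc
miR-181a-2-3p: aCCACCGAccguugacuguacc
miR-181c-3p: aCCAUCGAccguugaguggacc
miR-181b-1-3p: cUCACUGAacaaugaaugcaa
miR-181b-2-3p: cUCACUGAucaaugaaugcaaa
miR-181d-3p: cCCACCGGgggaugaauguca
miR-181a-1-3p and miR-181c-3p share the seed CCAUCGA, and the miR-181b 3p strands share UCACUGA. The miR-181a 3p strands differ by U5C and U16C, of which the former lies in the seed. The miR-181b 3p strands differ by A9U and in length by 1 base. No gene outside the family has any of these 3p seeds in the table.

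The first pair lies on chromosome 1, with Mir181a-1 (ENSMUSG00000065565.1) at chr1:137966455-137966541 and Mir181b-1 (ENSMUSG00000065458.1) at chr1:137966639-137966718, both on the plus strand of GRCm38 and 97 nt apart. Both lie in an intron of the non-coding gene Gm4258. An exon of the lincRNA A430106G13Rik covers Mir181b-1 and overlaps the end of Mir181a-1. The second pair lies on chromosome 2, with Mir181a-2 (ENSMUSG00000065423.1) at chr2:38852735-38852810 and Mir181b-2 (ENSMUSG00000065578.1) at chr2:38853830-38853918, on the plus strand and 1019 nt apart. These hairpins have no annotated gene on their own strand and sit opposite an intron of Nr6a1, which codes for an orphan nuclear receptor. Mir181b-2 also lies opposite an exon of Gm44144, a gene model annotated as still to be tested. The third pair lies on chromosome 8 on the minus strand, with Mir181c (ENSMUSG00000065483, version 1 in the tables and 2 in the annotation) at chr8:84178873-84178961 and Mir181d (ENSMUSG00000076338.1) at chr8:84178716-84178787, 85 nt apart. Both are in an intron of Nanos3, a gene known from germ cells.

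The 4 hairpins of the a and b type are printed with their mature strands in capitals, since the counting of these tables turns on them.
Mir181a-1: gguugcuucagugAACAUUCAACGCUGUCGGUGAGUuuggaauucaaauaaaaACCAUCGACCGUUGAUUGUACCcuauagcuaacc
Mir181a-2: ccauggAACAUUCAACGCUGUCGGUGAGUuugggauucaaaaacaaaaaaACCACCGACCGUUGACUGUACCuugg
Mir181b-1: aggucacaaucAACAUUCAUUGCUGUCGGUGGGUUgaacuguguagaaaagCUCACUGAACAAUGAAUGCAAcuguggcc
Mir181b-2: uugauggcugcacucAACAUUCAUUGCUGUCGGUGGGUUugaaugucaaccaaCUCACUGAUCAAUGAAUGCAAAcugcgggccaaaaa
The tables set reads that align to several places aside in a row of their own, and the 5p strands of these hairpins are each found whole in 2 annotated hairpins. The identical run around miR-181a-5p covers 28 nt, from 1 base before the strand to 4 bases after it. Around miR-181b-5p it covers 26 nt, with 2 bases before the strand and 0 after it. A read of exactly either 5p strand therefore aligns to both hairpins of its type. A miR-181b-5p read longer by 1 templated base at its 3′ end would differ between Mir181b-1 and Mir181b-2, while a miR-181a-5p read would need 5 such bases. Each 3p strand, and each strand of Mir181c and Mir181d, is found in 1 annotated hairpin. Places in the genome outside annotated hairpins were not searched.

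**Figure D1:**
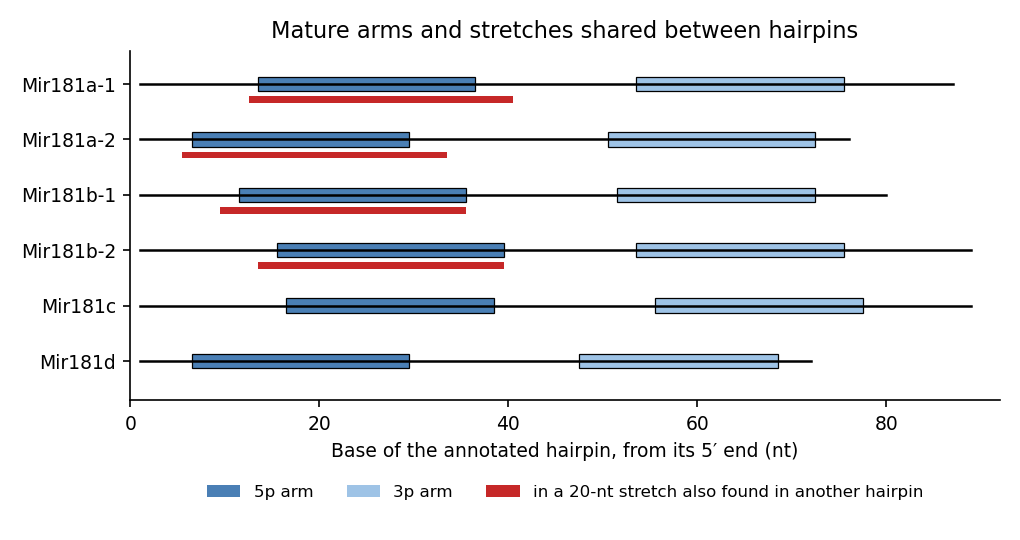
Map of the 6 annotated hairpins by base from the 5′ end (x axis, nt), with the 5p strand in dark blue, the 3p strand in light blue and, under each hairpin, a red bar over bases that belong to a 20-nt stretch also present in another annotated hairpin. The red bars cover the 5p strands of the 4 hairpins of the a and b type, and Mir181c and Mir181d have none.

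At this window of 20 nt, 9 of the 68 stretches of Mir181a-1 and 9 of the 57 of Mir181a-2 were shared, in each case with the other. Mir181b-1 shared 7 of 61 and Mir181b-2 7 of 70, again only with each other. None of the 70 stretches of Mir181c or of the 53 of Mir181d was in another hairpin. The values of the 4 hairpins of the a and b type are thus uncertain: they leave out an unknown number of 5p reads and are no measure of miR-181a-5p or miR-181b-5p. Reads set aside as multimapping made up 33.9% of replicate 1 and 34.5% of replicate 2, or 20.7 and 23.1 times the counts of the whole family. How many of them belong to the family, and which arm each counted read came from, is not given by these tables.

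Among counted reads the family was abundant and was led by the chromosome 8 pair. The 6 members summed to 33389 CPM, or counts per 1000000 counts in the gene rows of the library, in replicate 1 and 31401 CPM in replicate 2, a mean of 32395 ± 1406 CPM (SD, n = 2). This was 3.24% ± 0.141 of all gene counts. Mir181c and Mir181d held 73.8% of the family's counts in replicate 1 and 73.2% in replicate 2. The chromosome 1 pair held 16.1% and 15.99%, and the chromosome 2 pair 10.1% and 10.8%. The order of the 3 pairs was thus the same in both libraries. The gene rows they are measured against totalled 3006571 counts in replicate 1 and 4508244 in replicate 2.

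By exact match the strands of Mir181c and Mir181d are each found in 1 annotated hairpin, and reads aligned with a mismatch were not considered. Mir181c had 48383 counts or 16092 CPM in replicate 1 (exact Poisson 95% interval 15949 to 16237, counting error only). In replicate 2 Mir181c had 64110 counts or 14221 CPM (14111 to 14331). Its mean of 15157 ± 1324 CPM (SD, n = 2) placed it 16th among the detected genes. Mir181d, its neighbour in the Nanos3 intron, had 25695 counts or 8546 CPM in replicate 1 and 39559 counts or 8775 CPM in replicate 2, a mean of 8661 ± 162 CPM and rank 20. Mir181c lay above Mir181d in both libraries without overlap. The ratio of their counts was 1.88 in replicate 1 (exact binomial 95% interval 1.85 to 1.91) and 1.62 in replicate 2 (1.60 to 1.64), so the ratio itself moved between the libraries by more than counting error.

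Mir181a-1 followed, with 16041 counts or 5335 CPM in replicate 1 and 22518 counts or 4995 CPM in replicate 2. Its mean was 5165 ± 241 CPM (SD, n = 2), rank 36. Mir181b-2 had 9518 counts or 3166 CPM in replicate 1 and 14282 counts or 3168 CPM in replicate 2, a mean of 3167 ± 1.58 CPM and rank 59. Both are hairpins with a shared 5p strand, yet each lay far above the median of all detected genes, 166 CPM. For Mir181b-2 the libraries were closer to each other than the counting error of either, whose interval was 3102 to 3230 CPM in replicate 1.

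The lowest rows of the family were those of Mir181a-2 and Mir181b-1. Mir181a-2 had 650 counts or 216 CPM in replicate 1 (interval 199.9 to 233) and 974 counts or 216 CPM in replicate 2 (203 to 230), rank 166 by the mean. Mir181b-1 had 99 counts or 32.9 CPM in replicate 1 (26.8 to 40.1) and 118 counts or 26.2 CPM in replicate 2 (21.7 to 31.3), a mean of 29.6 ± 4.78 CPM (SD, n = 2) and rank 267. Mir181a-2 thus stood near the middle of the detected genes and Mir181b-1 low among them, with 25.0% of detected genes below it. Both rows leave out reads of a shared 5p strand, so neither is a measure of a low level.

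**Figure D2:**
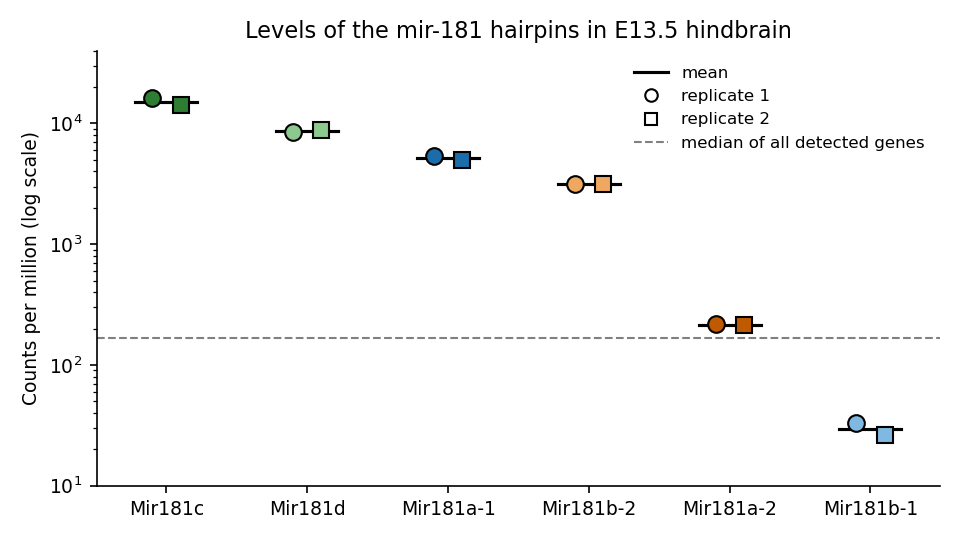
Level of each mir-181 hairpin (y axis, CPM on a log scale) in replicate 1 (circles) and replicate 2 (squares), with the mean as a bar and the median of all 356 detected genes, 166 CPM, as a dashed line. The libraries lie close together for each hairpin, while the hairpins run from 15157 CPM for Mir181c to 29.6 CPM for Mir181b-1.

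The order Mir181c, Mir181d, Mir181a-1, Mir181b-2, Mir181a-2, Mir181b-1 was the same in both libraries, and no neighbours in it overlapped. The steps between the first 4 were similar in size: 1.75-fold from Mir181c to Mir181d, 1.68-fold from Mir181d to Mir181a-1 and 1.63-fold from Mir181a-1 to Mir181b-2 (geometric means of the libraries). The next step, from Mir181b-2 to Mir181a-2, was 14.7-fold, and that from Mir181a-2 to Mir181b-1 7.36-fold. Rows from Mir181a-1 down leave out reads of a shared 5p strand. The steps after that from Mir181c to Mir181d thus compare counted reads and do not measure the 5p strands. With 2 libraries an exact paired permutation test (two-sided) cannot go below p = 0.5, which is the value of all 5 comparisons and, adjusted by Benjamini-Hochberg, stays 0.5. Each short read is 1 small RNA, so the levels were not divided by length, and per 100 nt of annotated hairpin the order was the same.

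The 2 hairpins of a pair differed widely on chromosomes 1 and 2, and in opposite senses. On chromosome 1 the a type was the higher: Mir181a-1 had 162 times the counts of Mir181b-1 in replicate 1 (exact binomial 95% interval 133 to 199) and 191 times in replicate 2 (159 to 231). On chromosome 2 the b type was the higher: Mir181b-2 had 14.6 times the counts of Mir181a-2 in replicate 1 (13.5 to 15.9) and 14.7 times in replicate 2 (13.7 to 15.7). In both pairs the fold was many times larger than its change between the libraries. On chromosome 8 the c type was the higher, by less than 2-fold as given above.

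Between the copies that make the same 5p strand the differences were as wide. Mir181a-1 had 24.7 times the counts of Mir181a-2 in replicate 1 (22.8 to 26.7) and 23.1 times in replicate 2 (21.7 to 24.7). Mir181b-2 had 96.1 times those of Mir181b-1 in replicate 1 (78.9 to 118) and 121 times in replicate 2 (101 to 146). Among counted reads the chromosome 1 row was the higher for the a type and the chromosome 2 row for the b type. In rows from which reads of the identical 5p strand are set aside, these folds compare only what is left to tell the copies apart, the 3p strands and longer reads. They do not rank the loci by their output of the 5p strand. The base after miR-181b-5p is g in Mir181b-1 and u in Mir181b-2, and whether the added bases of longer reads were templated was not tested.

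Set against other pairs of hairpins with 1 identical strand and both hairpins detected, the mir-181 pairs stood at the wide end. Among detected genes 15 pairs of hairpins have 1 identical and 1 different strand in the RefSeq table, a comparison added after the members' values were seen. Their median fold was 1.94. Pairs were taken whichever strand was the identical one, so the reads set aside as multimapping can differ in kind between them. Among these 15 the Mir181b copies had the largest fold, 108, and the Mir181a copies the next, 23.9. They were followed by Mir92-1 and Mir92-2 of the mir-17 family clusters at 19.5-fold and by Mir103-1 and Mir103-2 at 12.5-fold. Copies at the other end were Mir125b-1 and Mir125b-2, at 1.14-fold. Pairs with a copy below detection are not among the 15: there were 4 of this kind, among them Mir194-2 at 58.8 CPM, whose copy Mir194-1 had 2 counts in replicate 1 and 1 in replicate 2. Over both libraries Mir194-2 had 149 times the counts of Mir194-1 (exact binomial 95% interval 50.5 to 724), a ratio that rests on 3 counts and lies above that of the Mir181b copies, so the rank holds only among pairs with both copies detected. These pairs are described only, since genes of the same libraries are not replicates.

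**Figure D3:**
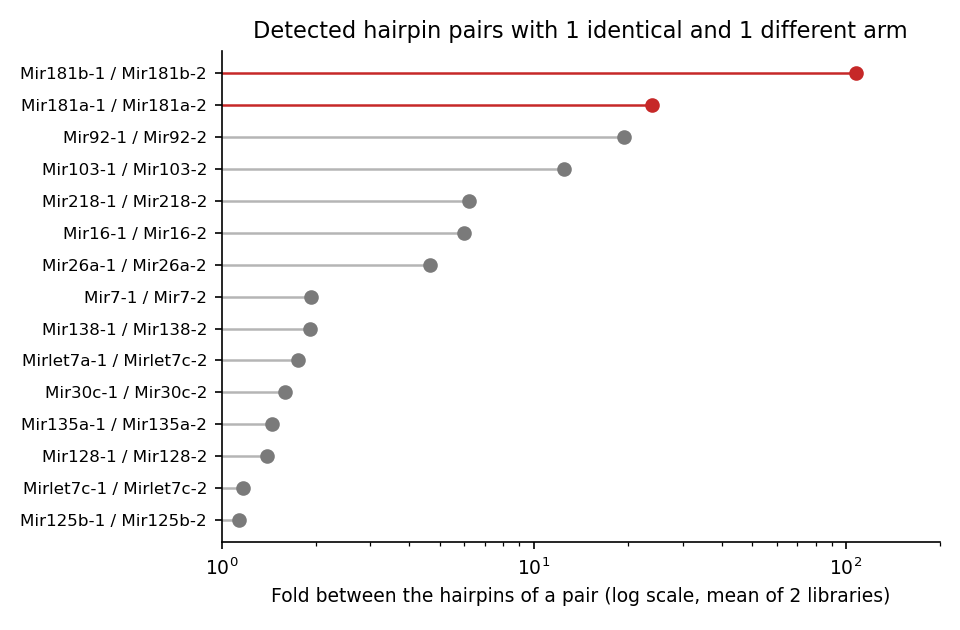
Fold between the 2 hairpins of each of 15 detected pairs with 1 identical and 1 different mature strand (x axis, log scale, geometric mean of the 2 libraries), with the mir-181 pairs in red. The Mir181b copies, at 108-fold, and the Mir181a copies, at 23.9-fold, lie above the other 13, of which the widest is at 19.5-fold.

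Of the detected genes, 325 have mature strands in the RefSeq table, and in 39 of them at least 1 strand is found whole in another annotated hairpin. The 39 had a median of 222 CPM and the other 286 a median of 158 CPM, and the 39 together held 2.48% of the counts. Hairpins below detection are in neither class, so the medians do not show what a shared strand does to a row. Mir181a-1 was the highest of the 39 and Mir181b-2 the second, with Mir181a-2 at rank 21 and Mir181b-1 at rank 32. The 4 held 34.6% of the counts of the 39. Among the 286 with no shared strand, Mir181c ranked 16th and Mir181d 20th.

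**Figure D4:**
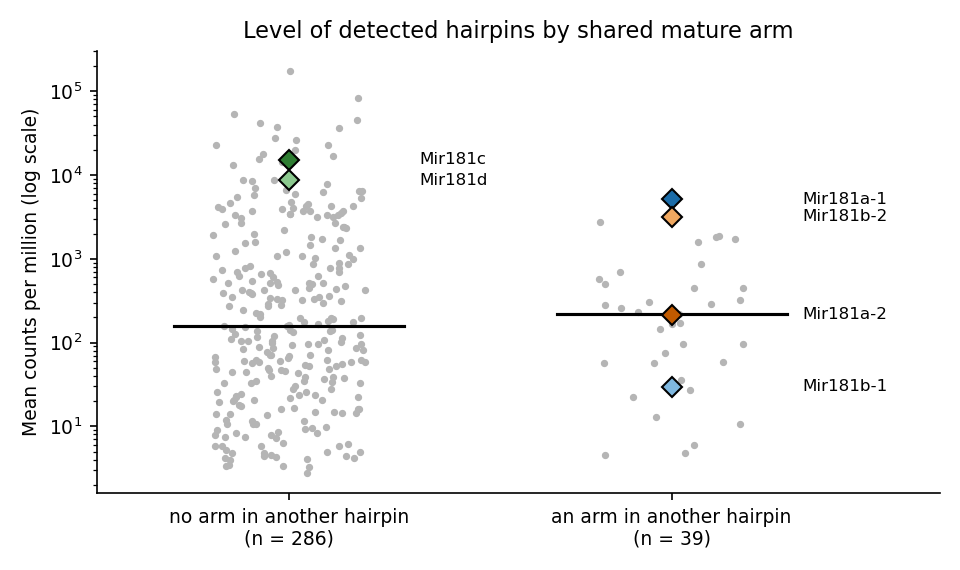
Mean level of 325 detected hairpins (y axis, CPM on a log scale), split by whether a mature strand is found whole in another annotated hairpin, with the median of each class as a bar and the mir-181 hairpins as labelled diamonds. Mir181a-1 and Mir181b-2 top the 39 hairpins with a shared strand, and Mir181c and Mir181d lie in the upper part of the other 286.

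Over 1 tissue at 1 stage no pattern across conditions can be compared, so the genes nearest in level were listed for each member. Mir181c stood between Mir26b, at 15373 ± 88.3 CPM (SD, n = 2), and Mir20a of the mir-17-92 polycistron, at 14286 ± 992 CPM, and overlapped both in its range over the libraries. Mir181d stood between Mir30a, at 8821 ± 33.5 CPM, and Mir322, at 8608 ± 354 CPM. Mir181a-1 lay between Mir744 and Mir18, and Mir181b-2 between Mir324 and the let-7 relative Mir98. Mir181a-2 lay between Mir667 and Mir874, and Mir181b-1 between Mir582 and Mir7689.

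Between the libraries the members differed little. The log2 ratio of replicate 2 over replicate 1, scaled by trimmed-mean (TMM) library sizes, was -0.19 for Mir181c (95% counting interval -0.21 to -0.17) and -0.11 for Mir181a-1 (-0.14 to -0.08). It was 0.03 for Mir181d (0.00 to 0.05), -0.01 for Mir181b-2 (-0.05 to 0.03) and -0.01 for Mir181a-2 (-0.16 to 0.13). Mir181b-1, with the fewest counts, had -0.34 with the widest interval, -0.74 to 0.06. None of the 6 lay beyond 1.5-fold, a distance passed by 9.83% of the detected genes. The median over the members was -0.06, beside 0.01 over all detected genes.

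By the two-sided exact binomial test on counts, with Benjamini-Hochberg adjustment over all detected genes, Mir181c (adjusted p = 1.73e-105) and Mir181a-1 (adjusted p = 2.92e-12) were lower in replicate 2. These 2 of 6 are read against 45.2% of all detected genes past the same test, 22.5% of the genes being higher and 22.8% lower in replicate 2, a background too high for the count to say anything of the members. The adjusted p was 0.0636 for Mir181d, 0.152 for Mir181b-1, 0.652 for Mir181b-2 and 0.914 for Mir181a-2. The test compares these libraries and takes sampling as the only error, and at such depth it calls small differences. The SD of the log2 ratio over all detected genes was 0.39, and the ratio of Mir181c was larger in size than that of 55.1% of them. That of Mir181b-1, with its wide interval, was larger in size than that of 79.5%. With plain totals in place of TMM, Mir181d passed the test as well, with a log2 ratio of 0.04 (adjusted p = 0.0031).

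**Figure D5:**
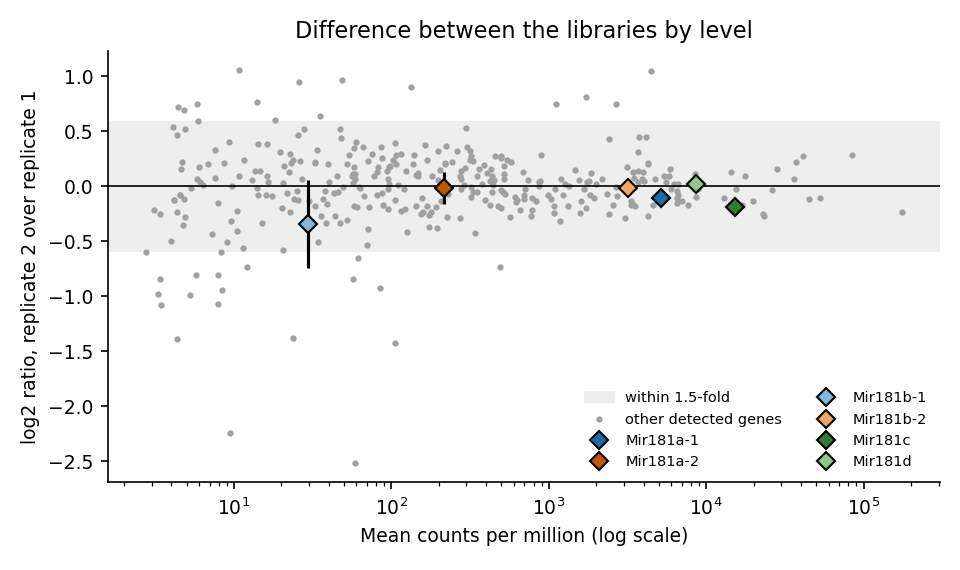
log2 ratio of replicate 2 over replicate 1 with TMM scaling (y axis) against mean level (x axis, CPM on a log scale) for 356 detected genes, with the mir-181 hairpins as diamonds whose bars are 95% counting intervals and the range within 1.5-fold shaded. All 6 members lie in the shaded range, with Mir181b-1, at -0.34, the farthest from 0.

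The tissue label was read against marker microRNAs. Of 18 listed neuronal genes 17 had a row and 13 were detected. The 17 summed to 11788 CPM in replicate 1 and 11884 CPM in replicate 2, led by Mir137 at 6207 ± 105 CPM (SD, n = 2) and Mir153 at 1579 ± 180 CPM. The 4 below detection were the Mir124a copies and Mir9-2. Of the 13, 9 have a strand found whole in another annotated hairpin, as has Mir9-2, so reads of that strand can be set aside as multimapping and these values are uncertain, not a measure of a low level. The Mir124a copies were not matched to the RefSeq table, so whether they share a strand was not checked. Their values are not read as a low level either. Blood and immune cells, in which the mir-181 family is also known to be abundant, had 7 listed genes with a row of 10, all detected, of which Mir146a and Mir486a were matched through RefSeq synonyms to Mir146 and Mir486. The 7 summed to 535 CPM in replicate 1 and 498 CPM in replicate 2, led by the mean by Mir155 at 164 ± 30.9 CPM and Mir223 at 147 ± 7.80 CPM. The close sums hide differences between the libraries. Mir451a was the highest of the 7 in replicate 1, at 152 CPM, and had 57.5 CPM in replicate 2 (log2 ratio -1.42). Mir155 went the other way, from 142 to 186 CPM. Whether the blood content of the libraries differed was not tested. The endothelial Mir126a stood at 19729 ± 1148 CPM, while its list mate Mir126b has no row of its own. None of the 6 detected blood and immune genes with a RefSeq strand has one found in another hairpin, nor has Mir126a. No listed gene with a row was at 0 in both libraries. The part of any of these cell types in the mir-181 levels was not tested.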

How the data were processed

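Short RNA of E13.5 mouse hindbrain was sequenced in 2 libraries of 1 group. The authors deposited raw read counts per microRNA gene, aligned to mm10 and counted on GENCODE M4, per the README deposited with the tables. For the aligner, the counter, their versions and adapter removal, the entry is: not given in the sources used here. Per library there are 3 count columns, and the third column of the table, which holds 98.1% of the either-strand counts in both libraries, was taken as the annotated strand. The 4 summary rows, 51.0% and 52.5% of reads in replicates 1 and 2, stayed out of library sizes and tests.

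Members were matched by Ensembl identifier, without version, to GENCODE M21 (GRCm38, which mm10 also denotes): 1894 of 1973 rows matched a name. RefSeq (GRCm38.p6) held mature strands for all 6 members and hairpins for 5, all but Mir181c. Stretches of 20 nt and whole strands were compared between 1894 GENCODE M21 hairpins.

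Genes with at least 10 counts in both libraries (3.33 CPM in replicate 1, 2.22 in replicate 2) were detected. Library sizes were scaled with edgeR 4.0.16 (TMM). With 1 group edgeR's quasi-likelihood test could not be fitted, so libraries were compared per gene by a two-sided exact binomial test (scipy 1.17.1), Benjamini-Hochberg adjusted over detected genes at a threshold of 0.05. The test was checked on simulated counts with plain totals and sampling error alone. That check says nothing of its calls where libraries differ by more than sampling. DESeq2 1.42.0 size factors, plain totals, either-strand counts, no low-count filter, other denominators and stretch lengths, and leaving out each library were tried. Intervals cover counting error only, since no molecular identifiers are named. Named genes were the members, the genes next to them in level, genes with the 5p seed (none outside the family) and the 2 highest of each marker list. The Mir92, Mir103, Mir125b and Mir194 copies, the Mir124a copies, Mir9-2 and Mir451a were named after their values were seen. Marker names without a row were looked up among RefSeq synonyms. The members and lists were chosen with earlier results of these data known.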

Additional observations from a re-analysis of the deposited data

How the results depend on the processing

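With all reads of the table as the denominator every level fell by about the share of reads outside gene rows: the sum to 15634 CPM, Mir181c to 7318, Mir181d to 4177, Mir181a-1 to 2493, Mir181b-2 to 1528, Mir181a-2 to 104 and Mir181b-1 to 14.3 CPM. With either-strand counts Mir181d had 8497, Mir181b-2 3107 and Mir181a-2 212 CPM, shifts past their small SDs that follow from the larger total. Plain totals in place of TMM move the log2 ratio of every gene by the same amount. With them the log2 ratio of Mir181b-2 turned from -0.01 to 0.001, with an adjusted p of 0.994 (exact binomial test, Benjamini-Hochberg). That of Mir181d became 0.0381 and passed the test, so that 3 members did. No log2 ratio of another member changed direction or call under the scalings, the either-strand counts or the test without the low-count filter. Past the test were 161 of 356 genes as reported, 169 with plain totals, 160 with DESeq2 size factors, 170 of 367 with either-strand counts, and 153 of 717 (21.3%) without the low-count filter. The order of the members was the same per 100 nt, with either-strand counts and in each library alone. At 16 nt, Mir181c also shared stretches, with both Mir181a hairpins. Leaving out either library gives only the other library's value, which says nothing of stability. Depth limits Mir181b-1 most, whose levels rest on 99 and 118 counts.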
